A study of Mus musculus with 3 samples.

Results

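Mural-marked barcodes are the cell barcodes of an endothelial sort of mouse skeletal muscle in which transcripts of pericytes or vascular smooth muscle cells were counted. A barcode was included when it held at least 300 genes, at most 10% of its unique molecular identifiers (UMIs, 1 per captured transcript) from mitochondrial genes, and at least 5 UMIs summed over Pdgfrb, Rgs5, Kcnj8, Abcc9, Notch3, Higd1b, Acta2, Tagln and Myh11. The members were thus chosen by their measured counts of these genes, 287 of 11554 barcodes that passed the filters. The other 11267 barcodes were the comparison. Of the 287, 246 were double-marked: they also held at least 5 UMIs over the endothelial genes Pecam1, Cdh5, Cldn5, Egfl7 and Esam. The remaining 41 are called mural-only. These 14 genes chose and split the barcodes, so their values are descriptions and no test was made of them.

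Viable CD31+ CD45- SYTOX blue- cells had been sorted from gastrocnemius muscle of C57BL/6N mice and loaded on the 10x Chromium platform with version 2 of the 3' chemistry. CD31 is the protein of Pecam1. The first library came from mice housed singly with a voluntary running wheel for 14 days (running), the second from mice housed singly without a wheel (sedentary) and the third from mice labelled as having had no treatment (untreated). The labels give neither ages, the number of animals per library nor the housing of the untreated mice, so group, batch and animal cannot be told apart, and with 1 library per group no test between groups was possible.

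Pericytes and vascular smooth muscle cells, together called mural cells, wrap the endothelial tube from outside. Pericytes sit on capillaries within the basement membrane and are recruited by endothelial platelet-derived growth factor acting on their receptor, encoded by Pdgfrb. Smooth muscle cells line arterioles and venules and narrow them by contracting an actin and myosin apparatus that includes the products of Acta2, Tagln and Myh11. Neither cell type is known for CD31 on its surface, which is the protein the sort selected for.

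The libraries held between 5625068 and 8002866 UMIs over all barcodes, and the median per barcode was 1518 UMIs in the running, 1122 in the sedentary and 1582 in the untreated library. Barcode sequences recurred between libraries, 23 between running and sedentary, 20 between running and untreated and 32 between sedentary and untreated. Only 3 of the 287 mural-marked barcodes carried such a shared sequence, 2 in the running and 1 in the sedentary library. All intervals below are exact 95% intervals (those of differences between shares are combined from both exact intervals) for counting error only and contain no variation between animals.

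The most frequent kind of mural-marked barcode held UMIs of mainly a single mural gene, which goes against the name. Of the 287 barcodes, 191 were double-marked and held UMIs of only 1 or 2 of the 9 mural genes. In 94 of these Rgs5 had the most UMIs (Rgs5-led), in 96 Tagln (Tagln-led) and in 1 Acta2. Another 55 double-marked barcodes held 3 or more of the 9 genes and are called multi-gene double-marked. This division by number of genes was chosen after the values had been seen, and it leaves room for at most 1 mural gene besides the leading one. Neither Pdgfrb nor Notch3, the receptors by which mural cells respond to endothelial ligands, had a UMI in any of the 94 Rgs5-led barcodes, and Kcnj8 had a UMI in 1 of them. Among the 96 Tagln-led barcodes 1 held a UMI of Pdgfrb, 3 of Acta2, 1 of Myh11 and none of Kcnj8 or Notch3. The mural name is therefore used here only for the rule, and the divisions are described one by one.

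**Figure D1:**
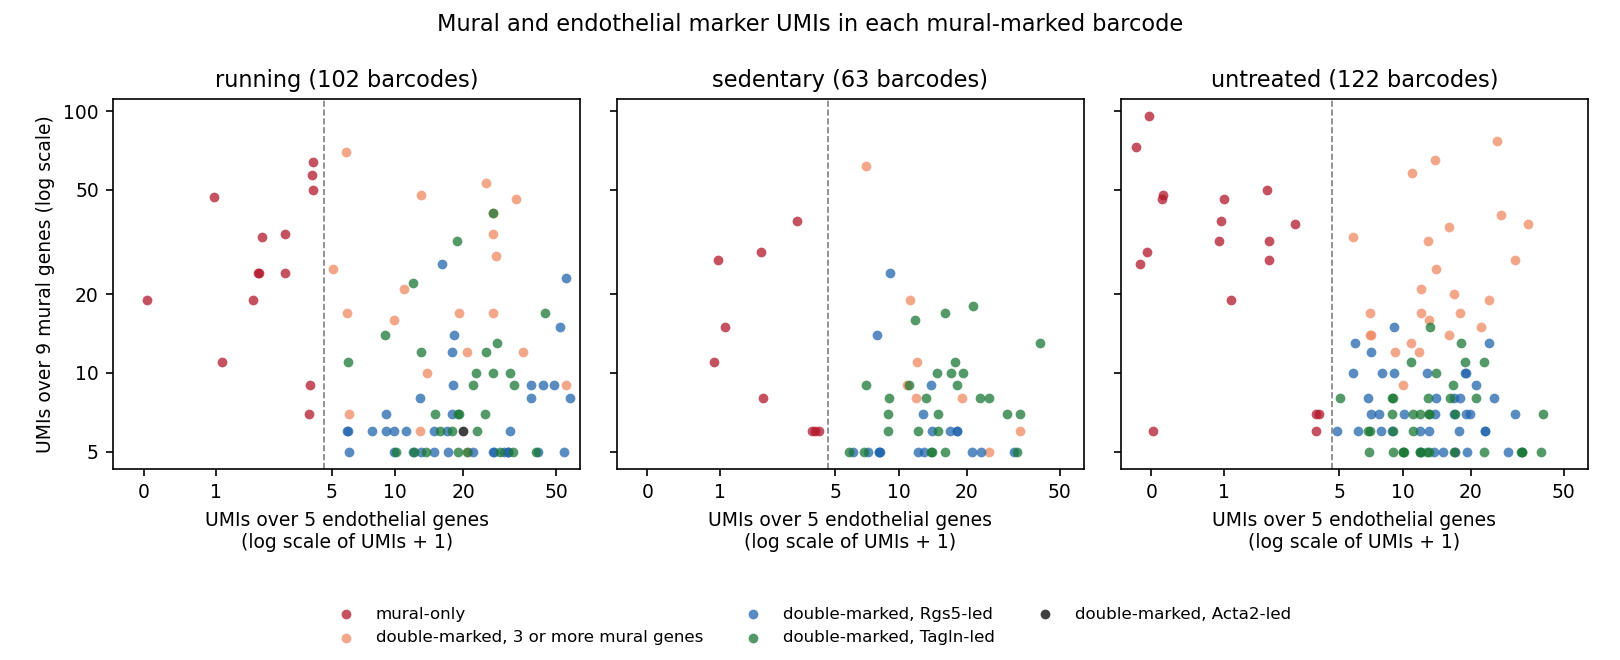
Each point is a mural-marked barcode, with UMIs over 9 mural genes (log scale) against UMIs over 5 endothelial genes (log scale of UMIs + 1) in each library, and colours mark the division. Barcodes with many mural UMIs, up to 70, 62 and 96 in the running, sedentary and untreated libraries, were mostly mural-only or multi-gene, whereas most Rgs5-led and Tagln-led barcodes lay near the limit of 5 mural UMIs; points are shifted slightly sideways to show overlaps.

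Pericyte-type and contractile genes contributed unequally to the rule. The 287 barcodes held 4033 mural UMIs, of which Rgs5, encoding a regulator of G protein signalling, gave 44.6%, Tagln, encoding the actin-binding protein transgelin, 27.0%, and Acta2, encoding smooth muscle actin, 9.77%. The pericyte-type genes alone (Pdgfrb, Rgs5, Kcnj8, Abcc9, Notch3, Higd1b) reached 5 UMIs in 148 barcodes and the contractile genes alone (Acta2, Tagln, Myh11) in 98. Both sets reached it in 26 barcodes, and in 15 only their sum did. The limit of 5 cut a continuous series: 63 barcodes held exactly 5 mural UMIs and 89 of the excluded barcodes held 4. On the endothelial axis, 3 double-marked barcodes held exactly 5 UMIs and 11 mural-only barcodes held 4.

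Most mural-only barcodes carried several mural genes at once. The division by number of genes was not applied to them, and 7 of the 41 held 1 mural gene and 2 held 2. Of the 41, 38 held a UMI of Rgs5, 29 of Pdgfrb, 25 of Notch3 and 20 of Higd1b, which encodes a mitochondrial inner membrane protein. Kcnj8 and Abcc9, which encode the pore and the sulfonylurea receptor of a potassium channel gated by ATP, each had a UMI in 19. In the other barcodes, whose median depth was 1503, 1115 and 1566.5 UMIs in the running, sedentary and untreated libraries, Pdgfrb had a UMI in 0.515%, 0.253% and 0.190%, and Rgs5 in 16.3%, 9.99% and 14.1%. The mural-only barcodes had median depths of 2608, 1463 and 1878.5 UMIs. Rgs5 was thus counted in many of the other barcodes and Pdgfrb in few. Whether free RNA gave these counts was not tested.

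UMIs were then summed over the barcodes of each division in each library and expressed as CPM, counts scaled to a total of 1000000. A gene was called higher or lower when the ratio to the other barcodes was at least 2-fold in the same direction in each of the 3 libraries. Over all 287 barcodes 6667 genes had enough counts, of which 154 (2.31%) were called higher and 23 (0.345%) lower; since the rule used this contrast, nothing is read from these shares. Genes near the count limit or rare in other barcodes could enter only through the division in which they were high. The counts for lists given below are therefore descriptions as well.

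The genes with the largest ratios outside the rule were mostly known from mural cells. Steap4, encoding a metalloreductase, stood at 104.4, 99.2 and 162.3 CPM in running, sedentary and untreated mural-marked barcodes, against 1.26, 1.30 and 2.25 CPM in other barcodes (log2 ratio of the pooled counts 6.24, 5.66 to 6.86). Rgs4, encoding a relative of Rgs5, stood at 148.7, 70.0 and 162.3 CPM, against 2.71, 0.741 and 1.06 CPM (6.58, 5.98 to 7.24). Aspn, encoding the small proteoglycan asporin, stood at 122.6, 140.0 and 159.7 CPM, against 2.17, 0.927 and 0.926 CPM (6.76, 6.13 to 7.46). In none of the 3 genes did any mural-marked level come near that of the other barcodes.

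Further genes of this group were Carmn, a long non-coding RNA of smooth muscle, with 21, 5 and 13 UMIs against 3, 0 and 0 in the far larger set of other barcodes, and Ndufa4l2, encoding a relative of a respiratory chain subunit, at 318.3, 145.8 and 277.6 CPM against 8.66, 3.34 and 2.38 CPM. Also among the 15 highest were Il34, Olfr558, Itga7, Kcnk3, Nrip2, Pde3a, Col6a3, Agtr1a, Tesc and Mark1. The 10 lowest held the haemoglobin genes Hba-a1, Hba-a2, Hbb-bs and Hbb-bt. Summed over the erythrocyte list these came to 621, 893 and 18.3 CPM in mural-marked barcodes, against 5418, 6082 and 181.6 CPM in other barcodes. The others among the 10 were the arterial genes Cytl1 and Gkn3, the lymphatic genes Lyve1 and Ccl21a, and Slc12a5 and Car8.

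Lists of genes by function are given beside the 2.31% called higher over all genes. Of 9 measurable ion channel and calcium genes 5 were called higher, of which Kcnj8 and Abcc9 belong to the rule and Kcne4, Ano1 and Casq2 do not. Ano1, encoding a chloride channel opened by calcium, had 21, 2 and 31 UMIs, against 2, 2 and 0 UMIs in other barcodes. Of 9 receptors for vasoactive ligands 3 were called: Agtr1a for angiotensin II, Ednra for endothelin and S1pr3 for sphingosine 1-phosphate. Of 8 genes of cyclic GMP and nitric oxide signalling 4 were called higher, namely the soluble guanylate cyclase subunits Gucy1a3 and Gucy1b3 and the phosphodiesterases Pde3a and Pde5a, and Nos2 was called lower. Among 13 transcription factor genes 5 were called (Tbx2, Ebf2, Heyl, Prrx1, Zeb2). None of the 17 endothelial genes was called in either direction over the 287 barcodes.

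The 41 mural-only barcodes had mural genes beyond the rule and low endothelial RNA, the second fixed in part by their definition. Outside the rule, 6 pericyte genes had enough counts (Cox4i2, Ndufa4l2, Vtn, Art3, Steap4, Agtr1a), and all were called higher against other barcodes. Their median log2 ratio was 8.43, beside -0.14 over all genes measured. Genes so rare in other barcodes could have enough counts only by being high in mural-only barcodes, so the filter fixed these calls. Cspg4, Anpep, P2ry14 and Colec11 of the same list did not have enough counts. Of 12 smooth muscle genes outside the rule 9 were called higher (median 4.96). In all, 825 genes had enough counts, of which 91 (11.0%) were called higher and 92 (11.2%) lower. Of 8 endothelial genes outside the rule 4 were called lower: the vascular endothelial growth factor receptors Kdr and Flt1, the orphan receptor Tie1, and Cd93.

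Rgs4 stood at 833, 642 and 898 CPM in running, sedentary and untreated mural-only barcodes, against 2.71, 0.741 and 1.06 CPM in other barcodes (9.16, 8.50 to 9.85). Myl9, encoding the regulatory light chain of smooth muscle myosin, stood at 1749, 1043 and 1881 CPM, against 26.7, 25.6 and 10.1 CPM (6.44, 6.15 to 6.72). Cox4i2, encoding an isoform of a cytochrome c oxidase subunit, stood at 444, 401 and 618 CPM, against 3.61, 4.08 and 2.25 CPM (7.33, 6.72 to 7.92). Each of these levels differed less than 2-fold between the 3 libraries. Vtn, encoding vitronectin, was uneven, with 15, 1 and 23 UMIs, and so was Gucy1a3 with 26, 2 and 27 UMIs. The sedentary library had only 9 mural-only barcodes.

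Endothelial RNA was low but present in the mural-only barcodes. Pecam1 had 3, 4 and 5 UMIs in the running, sedentary and untreated libraries, or 83.3, 321 and 140 CPM, against 1045, 1154 and 1122 CPM in other barcodes (log2 ratio -2.96, -3.91 to -2.15). Kdr stood at 139, 321 and 140 CPM, against 969, 1011 and 681 CPM (-2.38, -3.25 to -1.63). Edn1, encoding the vasoconstrictor peptide that Ednra binds, had no UMI in any mural-only barcode, whereas other barcodes held 684, 1234 and 3207 UMIs. Counting a limit of 3 UMIs over the group, its log2 ratio was -2.96 or lower. Ednra had 12, 1 and 8 UMIs in mural-only barcodes, against 0, 1 and 2 UMIs in other barcodes. Of mural-only and other barcodes, Edn1 was thus counted in the other ones alone. Ednra was counted mainly in mural-only ones, though with 1 UMI on each side in the sedentary library. It had enough counts only through the mural-only barcodes. Ednrb, the second endothelin receptor gene, had 9 UMIs in mural-only barcodes with Kcnj8 but not Acta2, and 17 in those with Acta2 but not Kcnj8.

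Markers of further cell types were checked in the mural-only barcodes. The fibroblast genes Pdgfra, Dcn and Lum and the leukocyte gene Ptprc had no UMI. The list of 14 fibroblast genes summed to 1527, 882 and 702 CPM in mural-only barcodes, against 266, 146 and 128 CPM in other barcodes, and 6, 3 and 6 of its genes had a UMI. Its called member was Col3a1, a fibrillar collagen gene, with 9, 7 and 4 UMIs. Of 13 muscle fibre genes Tpm2, which smooth muscle also expresses, gave 21, 11 and 47 of the 23, 12 and 47 UMIs. Mitochondrial UMIs made up a median of 4.05%, 5.24% and 4.57% in mural-only barcodes, against 2.79%, 3.03% and 2.38% in other barcodes. Their part in the ratios was not tested.

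**Figure D2:**
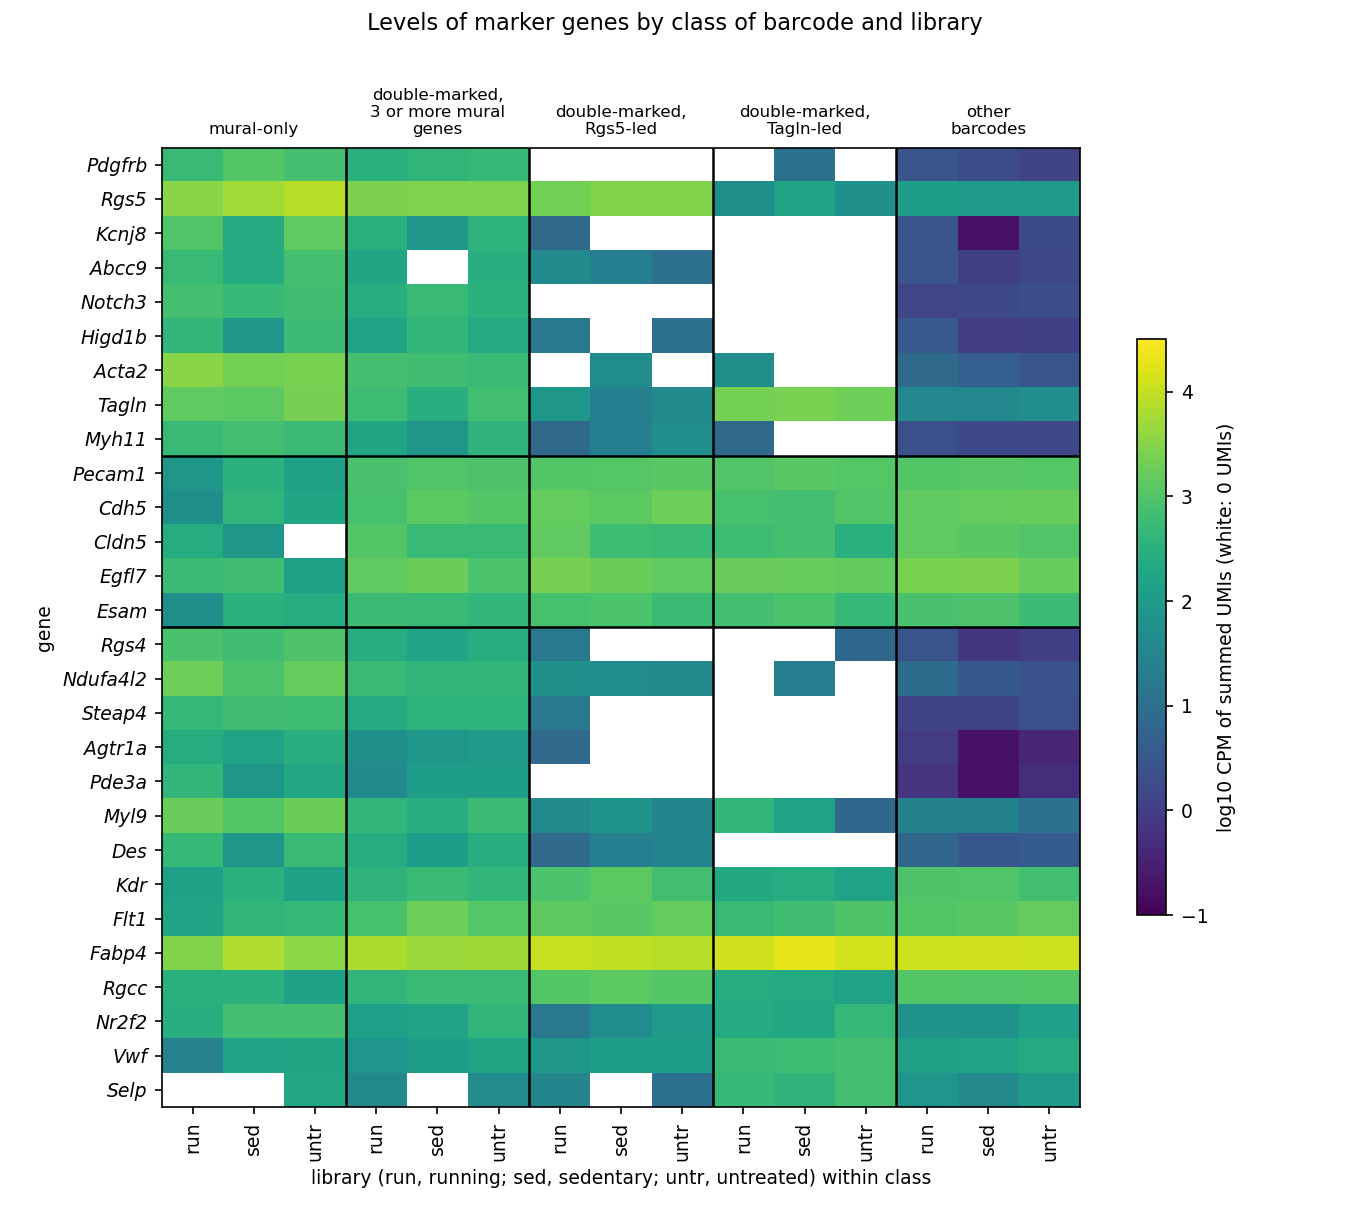
Colour gives the log10 CPM of summed UMIs for marker genes (rows) in each library within each division of barcodes (columns), with white for 0 UMIs. Several mural genes were high in mural-only and multi-gene barcodes, whereas Rgs5-led and Tagln-led barcodes showed one strong mural gene each.

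Within the mural-only barcodes the channel genes and the actin gene mostly marked different barcodes. Kcnj8 and Abcc9 were found together in 17 barcodes, each alone in 2, and neither in 20. The 2 genes are neighbours on the minus strand, Kcnj8 at chr6:142564837-142571614 and Abcc9 at chr6:142587862-142702315 (GRCm38, GENCODE annotation). Kcnj8 and Acta2 were found together in only 3, Kcnj8 alone in 16 and Acta2 alone in 13, with neither in 9. In the multi-gene double-marked barcodes the same counts were 3, 22, 19 and 11. All 3 mural-only barcodes with both genes came from the running library, where each gene was alone in 5. All 3 such multi-gene double-marked barcodes came from the untreated library. Each library contributed to both kinds, with 5, 2 and 9 Kcnj8 barcodes and 5, 3 and 5 Acta2 barcodes from running, sedentary and untreated mice. The Kcnj8 barcodes had medians of 1674, 1627 and 1667 UMIs and the Acta2 barcodes 3110, 1463 and 2417 UMIs. This split was made after its values had been seen, and the ratios below are descriptions.

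Abcc9 had 11, 2 and 27 UMIs in Kcnj8 barcodes of the running, sedentary and untreated libraries, against 1, 0 and 0 UMIs in Acta2 barcodes (log2 ratio of summed counts 5.52, 2.96 to 10.9). Gnb4, encoding a G protein beta subunit, had 5, 1 and 25 UMIs, against 0, 1 and 1 UMIs (4.15, 2.18 to 7.26). Steap4 had 10, 1 and 20 UMIs, against 5, 7 and 2 UMIs (1.35, 0.39 to 2.37), so that the sedentary library ran the other way. Vtn had 6, 0 and 19 UMIs, against 4, 0 and 4 UMIs (1.84, 0.65 to 3.20). Not all pericyte-type genes ran this way. Cox4i2 had 19 UMIs in Kcnj8 barcodes and 19 in Acta2 barcodes. Notch3 had 16 and 33 UMIs (-0.85, -1.81 to 0.06). Kcnj8 barcodes were thus richer in the channel partner and in some pericyte genes but not in others. Most of the Kcnj8-barcode counts of Abcc9, Gnb4, Steap4 and Vtn were from the untreated library.

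Contractile genes lay on the other side. Tagln had 0, 3 and 2 UMIs in Kcnj8 barcodes, against 37, 13 and 66 UMIs in Acta2 barcodes (-4.34, -5.99 to -3.07). Crip1, encoding a small LIM domain protein, had 14, 6 and 21 UMIs, against 194, 23 and 158 UMIs (-3.00, -3.50 to -2.53). Tpm2, encoding a tropomyosin, had 0, 3 and 5 UMIs, against 18, 7 and 42 UMIs (-2.87, -4.14 to -1.81). Myl9 had 5, 4 and 19 UMIs, against 46, 5 and 48 UMIs (-1.62, -2.28 to -1.01). In Tagln, Crip1 and Tpm2 the Acta2 barcodes held more UMIs in all 3 libraries. The sedentary library had only 2 Kcnj8 and 3 Acta2 barcodes. There the margin of Tpm2 was small (3 and 7 UMIs), and the 4 and 5 UMIs of Myl9 were about level.

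Some mural genes were nearly level between the kinds. Pdgfrb had 26 UMIs in Kcnj8 barcodes and 28 in Acta2 barcodes, a log2 ratio of 0.09 (-0.74 to 0.91), and Ndufa4l2 had 65 and 59 UMIs (0.34). Rgs5 was counted in both, with 251 and 150 UMIs (0.94, 0.64 to 1.24), and the ratio over all barcodes with 3 or more mural genes was 0.05 (-0.15 to 0.25). Pdgfrb and Rgs5 thus had counts in both kinds, unlike Abcc9 and Tagln.

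Promoter sequences are shown for these genes because contractile genes are known targets of serum response factor, which binds the CArG box. The 250 bases before the start of Acta2, Myl9 and Rgs5 were taken from RefSeq (GRCm38.p6), and capitals mark 10-base matches to the CArG box, allowing at most 1 g or c in its 6-base core. The Acta2 window lies at chr19:34255374-34255623 on the minus strand, that of Myl9 at chr2:156775214-156775463 on the plus strand and that of Rgs5 at chr1:169655251-169655500 on the plus strand.
Acta2: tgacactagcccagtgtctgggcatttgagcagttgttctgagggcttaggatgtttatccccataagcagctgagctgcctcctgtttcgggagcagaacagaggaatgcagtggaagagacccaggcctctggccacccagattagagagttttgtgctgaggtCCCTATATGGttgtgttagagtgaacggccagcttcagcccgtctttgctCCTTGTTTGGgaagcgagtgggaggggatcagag
Myl9: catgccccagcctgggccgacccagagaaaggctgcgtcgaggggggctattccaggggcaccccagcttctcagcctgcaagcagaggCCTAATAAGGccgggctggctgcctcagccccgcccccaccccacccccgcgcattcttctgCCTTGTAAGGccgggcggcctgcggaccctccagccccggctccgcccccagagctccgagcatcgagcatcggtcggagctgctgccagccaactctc
Rgs5: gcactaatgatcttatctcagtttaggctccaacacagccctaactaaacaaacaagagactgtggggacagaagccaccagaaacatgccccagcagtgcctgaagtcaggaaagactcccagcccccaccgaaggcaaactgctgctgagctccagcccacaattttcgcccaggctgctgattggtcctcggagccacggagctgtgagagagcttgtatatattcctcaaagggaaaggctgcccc

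The matches began 84 and 34 bases before the start of Acta2 and 161 and 99 bases before that of Myl9, and the Rgs5 window held none. The box reads the same on both strands, so 1 search covered both. In this form a match was present in 8.59% of 32851 promoter windows. In the lists each gene with a window was counted once, with a match in any of its windows. Tagln and Myh11 had no window. A match was present in 4 of 17 contractile genes (Acta2, Myl6, Myl9, Vcl) and in 0 of 11 pericyte genes. It was present in 3 of 17 smooth muscle genes (Acta2, Crip1, Myl9) and in 0 of 6 capillary and 0 of 7 vein genes. With a core of a and t alone it was present in 1.47% of all windows. In that form it was present in 3 of 17 contractile genes (Myl6, Myl9, Vcl) and in 1 of 17 smooth muscle genes (Myl9). A match describes letters in the window and says nothing of binding in these cells.

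The 55 multi-gene double-marked barcodes held mural and endothelial genes together, as their definition required. Outside the rule, all 5 measurable pericyte genes (Cox4i2, Ndufa4l2, Vtn, Art3, Steap4) and 7 of 11 smooth muscle genes were called higher against other barcodes. Here too, genes so rare in other barcodes could have enough counts only by being high in the division. None of 11 endothelial genes outside the rule was called, with a median log2 ratio of -0.68. Of 2344 genes measured, 92 (3.92%) were called higher and 23 (0.981%) lower. Steap4 stood at 228, 360 and 368 CPM in running, sedentary and untreated barcodes, against 1.26, 1.30 and 2.25 CPM in other barcodes. Pecam1 stood at 824, 999 and 910 CPM, against 1045, 1154 and 1122 CPM (log2 ratio -0.33, -0.53 to -0.12). Kdr stood at 379, 559 and 414 CPM, against 969, 1011 and 681 CPM (-1.05, -1.36 to -0.76). Both endothelial genes were thus below the level of other barcodes, by differing amounts.

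The depth of the multi-gene double-marked barcodes was a median of 4029, 2533.5 and 3935.5 UMIs in the running, sedentary and untreated libraries. The Tagln-led barcodes were about as deep, with medians of 4181, 2928 and 3279 UMIs, and the Rgs5-led barcodes less deep, with medians of 2778, 2025 and 2152 UMIs. Doublets were neither called nor removed, and whether any of these barcodes held 2 cells was not tested.

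**Figure D3:**
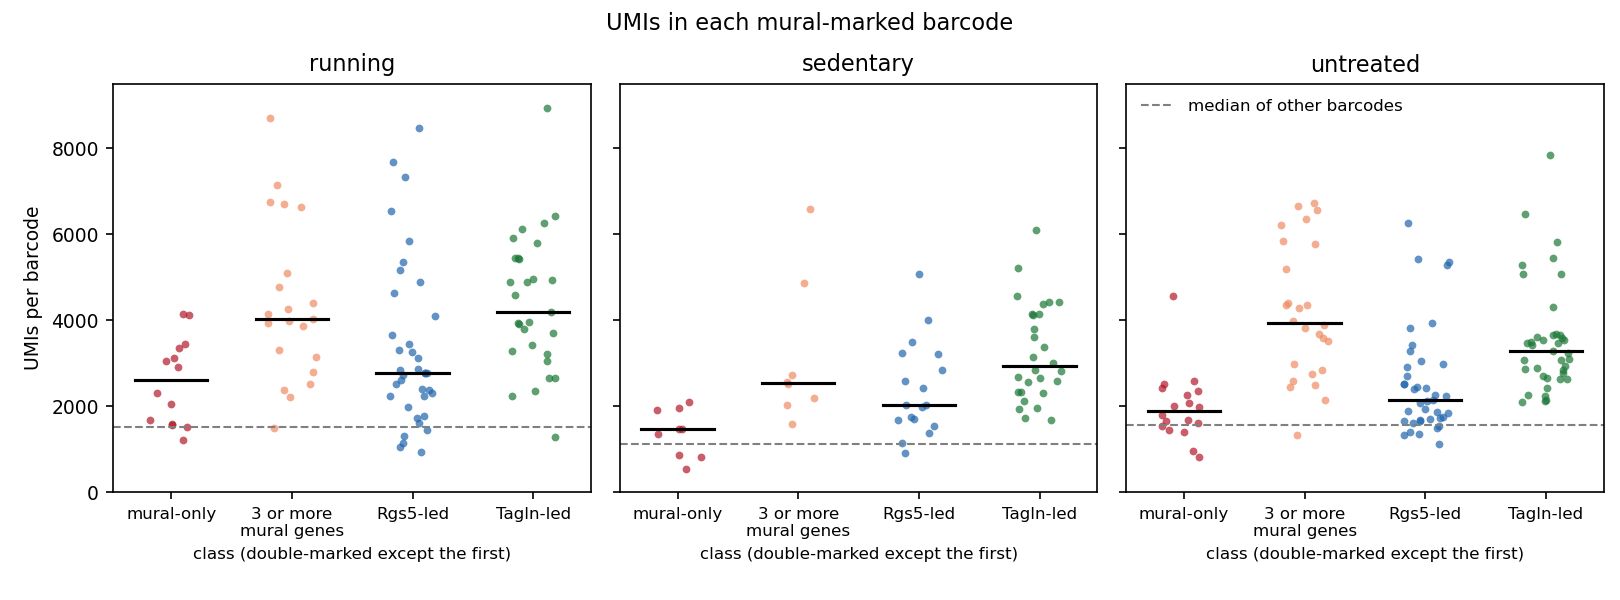
Points are UMIs per barcode (linear axis) by division and library, with the median of each division as a bar and the median of other barcodes dashed. The median of each division stood above that of the other barcodes in each library, which was 1503, 1115 and 1566.5 UMIs.

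Set directly against mural-only barcodes, the 246 double-marked barcodes had more genes called lower than higher. Of 791 genes measured, 54 (6.83%) were called higher in double-marked and 76 (9.61%) lower. Outside the rule, all 6 pericyte genes and 6 of 12 smooth muscle genes were called lower. Such genes had enough counts through the mural-only barcodes, in which they were high. Called higher were 4 of 9 capillary genes and 1 of 7 endothelial genes (Flt1). The split depended on the scaling, with 218 higher and 47 lower under TMM scaling, which moved the median log2 ratio over all genes to 0.97 from 0.24 with library totals. Edn1 had 114, 21 and 166 UMIs in running, sedentary and untreated double-marked barcodes, against 0, 0 and 0 UMIs in mural-only barcodes. With a limit of 3 UMIs over the group its log2 ratio was at least 3.31. Plvap, encoding the diaphragm protein of endothelial fenestrae and caveolae, stood at 945, 1837 and 783 CPM, against 27.8, 160.4 and 140.4 CPM (3.46, 2.47 to 4.67). Double-marked barcodes differed among themselves in Plvap. Its log2 ratio of Tagln-led to Rgs5-led barcodes was 3.64 to 3.97 in the 3 libraries. Ushbp1, Apoe, H2-Q4, Scarb1, Aplnr and Vamp5 completed the 8 highest.

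The 8 lowest in double-marked barcodes were Ednra, Casq2, Fxyd1, Rgs4, Ndufa4l2, Igfbp5, Agtr1a and Dtx3. Igfbp5, encoding a binding protein of insulin-like growth factors, stood at 127, 50.3 and 211 CPM in double-marked barcodes, against 2777, 1203 and 1740 CPM in mural-only barcodes (-3.84, -4.19 to -3.51). Ndufa4l2 stood at 153, 88.1 and 142 CPM, against 1916, 882 and 1600 CPM (-3.58, -3.95 to -3.21). None of these 8 genes was in the rule. Their directions, and those of the 8 highest, were the same under each scaling tried.

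In the 94 Rgs5-led barcodes few genes besides Rgs5 were called against other barcodes. Of 2591 genes 4 (0.154%) were called higher, namely Rgs5, Wipf2, Atf5 and Map3k20, and 9 (0.347%) lower, the 4 haemoglobin genes among them. Called lower as well were the vein gene Selp, the artery gene Mgp and the lymphatic gene Ccl21a. Their highest library log2 ratios were -1.16, -1.09 and -3.62. Pecam1 stood at 1071, 1140 and 1221 CPM in running, sedentary and untreated Rgs5-led barcodes, against 1045, 1154 and 1122 CPM in other barcodes (log2 ratio 0.04, -0.13 to 0.20). Rgcc, a gene high in capillary endothelium, stood at 1047, 1326 and 1079 CPM, against 1062, 1026 and 1086 CPM (0.06, -0.11 to 0.22). Median log2 ratios were -0.07 over 17 endothelial genes and -0.09 over 10 capillary genes. The endothelial list includes Pecam1 and the other endothelial genes of the rule, of which these barcodes had to hold at least 5 UMIs. Of the 16 pericyte genes only Rgs5 itself had enough counts. Capillary genes of these barcodes thus stood near the level of other barcodes, while the endothelial values were set in part by the definition.

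The 96 Tagln-led barcodes were rich in vein genes. Of the 9 vein genes 7 had enough counts and 6 were called higher than in other barcodes (median log2 ratio 2.42, beside -0.14 over all genes). Of 10 capillary genes 4 were called lower, and of 9 artery genes 5. Of 3335 genes, 81 (2.43%) were called higher and 129 (3.87%) lower. Tagln and Sncg were called higher among 9 measurable smooth muscle genes, and the single measurable pericyte gene was Rgs5. Of 13 contractile apparatus genes 4 were called higher (Tagln, Flna, Actn1, Ppp1r14a). Ppp1r14a, encoding an inhibitor of myosin phosphatase, had 20, 6 and 15 UMIs in running, sedentary and untreated Tagln-led barcodes, against 83, 48 and 96 UMIs in the far larger set of other barcodes (log2 ratio 3.23, 2.71 to 3.71).

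Nr2f2, encoding the transcription factor COUP-TFII that specifies venous identity, stood at 243, 198 and 463 CPM in running, sedentary and untreated Tagln-led barcodes, against 66.0, 65.0 and 125 CPM in other barcodes (1.82, 1.53 to 2.09). Selp, encoding the leukocyte adhesion receptor P-selectin, stood at 486, 374 and 708 CPM, against 72.5, 38.7 and 110 CPM (2.80, 2.58 to 3.02). Lrg1, encoding a secreted leucine-rich glycoprotein, stood at 846, 1363 and 752 CPM, against 120, 98.0 and 92.7 CPM (3.20, 3.03 to 3.37). In all 3 genes each Tagln-led level was above each level of the other barcodes. The remaining called vein genes were Vwf, Ackr1 and Vcam1, and Ephb4 was not called (0.38, -0.08 to 0.80).

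Outside the vein list, Plvap was among the most abundant of the called genes, at 2099, 2980 and 1482 CPM, against 228, 228 and 257 CPM (3.12, 3.01 to 3.23). Bgn, encoding the proteoglycan biglycan, stood at 955, 781 and 716 CPM, against 91.3, 75.2 and 159 CPM (2.84, 2.66 to 3.02). Timp2, Thbs1 and Eln of the matrix list and Bmp4 and Dll1, ligands of the BMP and Notch pathways, were called higher as well. Thbs1 rested on the running library, with 47, 3 and 9 UMIs.

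Capillary and artery genes ran the other way in the Tagln-led barcodes. Rgcc stood at 258, 231 and 145 CPM, against 1062, 1026 and 1086 CPM (-2.36). Car4, encoding a carbonic anhydrase on the surface of capillary endothelium, had 1, 2 and 0 UMIs, against 871, 1054 and 1303 UMIs in other barcodes (-4.38, -6.65 to -2.83). Kdr stood at 219, 253 and 145 CPM, against 969, 1011 and 681 CPM (-2.12, -2.48 to -1.78). Gja5, Gja4, Sema3g, Hey1 and Efnb2 were the artery genes called lower, Gja5 with 0, 0 and 5 UMIs. Of 12 endothelial genes outside the rule Kdr alone was called lower (median log2 ratio -0.12). Among the rule's endothelial genes Pecam1 stood at 1041, 1210 and 1113 CPM, against 1045, 1154 and 1122 CPM (0.00, -0.14 to 0.15). Cdh5, encoding the junction protein VE-cadherin, stood at 807, 726 and 1019 CPM, against 1429, 1607 and 1696 CPM (-0.87, -1.04 to -0.71), and Cldn5, encoding a tight junction protein, at 611, 748 and 304 CPM, against 1463, 1260 and 1004 CPM (-1.21). Endothelial genes of these barcodes thus differed in level among themselves.

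**Figure D4:**
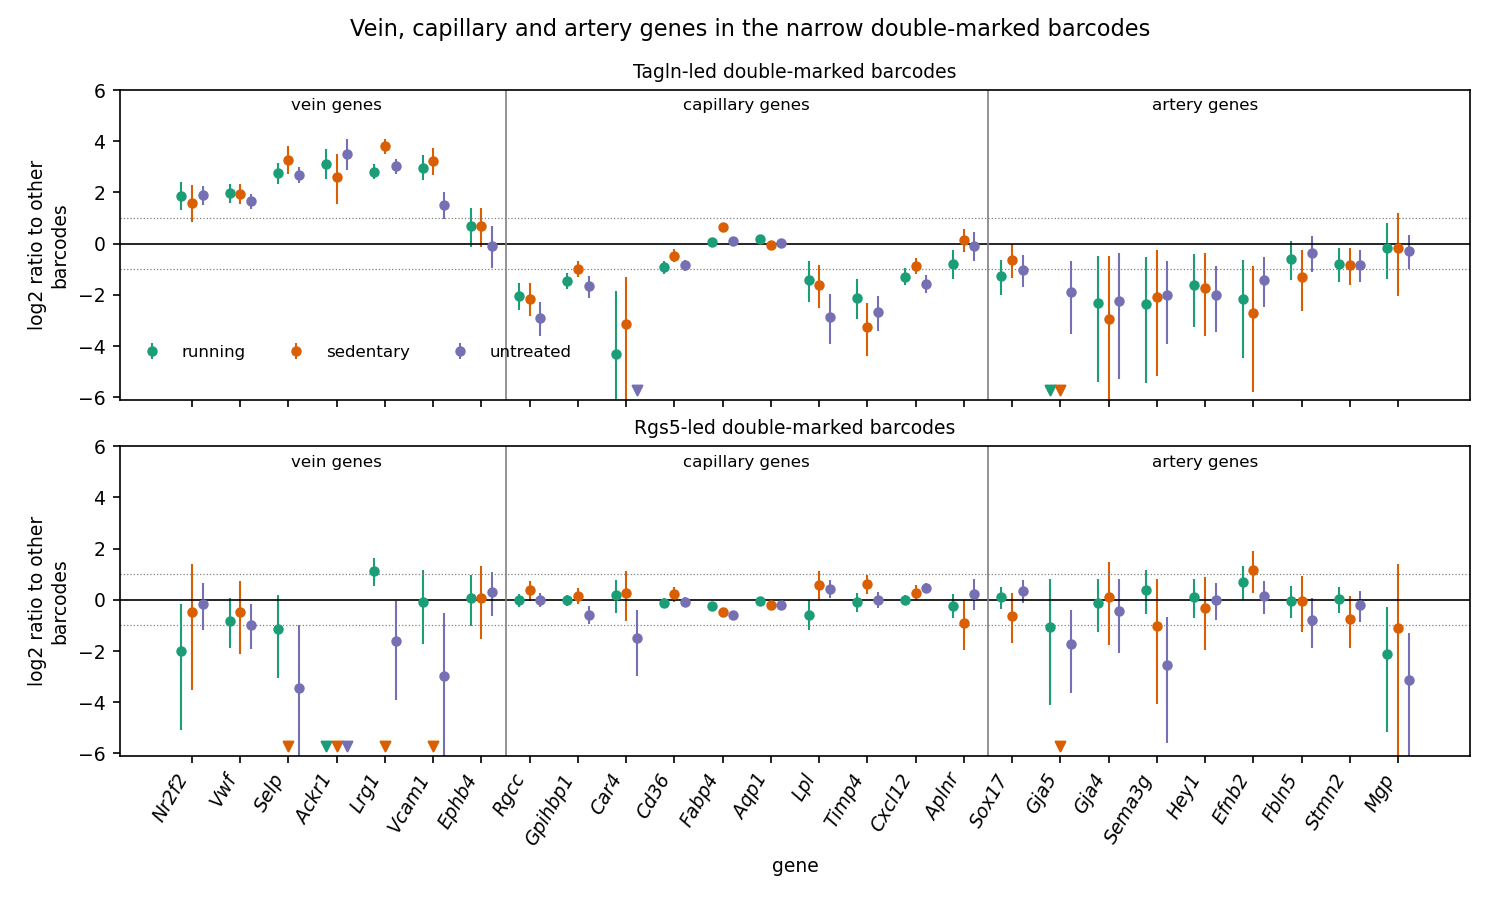
Points are log2 ratios to other barcodes for vein, capillary and artery genes in each library, with exact 95% counting intervals, for Tagln-led (top) and Rgs5-led (bottom) barcodes; triangles at the lower edge mark 0 UMIs. Vein genes other than Ephb4 lay above 1 in all 3 libraries in Tagln-led barcodes, and in Rgs5-led barcodes capillary genes other than Car4 lay within 1 of 0.

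The 2 single-gene divisions were also set against each other. Of 3470 genes, 97 (2.80%) were called higher in Tagln-led than in Rgs5-led barcodes and 127 (3.66%) lower. The part of their unequal depth in these calls was not tested.

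Mural-marked barcodes made up 3.18% (102 of 3212, 2.60 to 3.84) of the running library, 1.57% (63 of 4016, 1.21 to 2.00) of the sedentary and 2.82% (122 of 4326, 2.35 to 3.36) of the untreated library. Running was 1.61 percentage points above sedentary (0.88 to 2.37) and 0.36 above untreated (-0.44 to 1.17), and sedentary was 1.25 points below untreated (difference -1.25, -1.90 to -0.61). The sedentary library stood apart from the other two, while running and untreated could not be told apart within counting error. The sedentary library was also the shallowest and the share follows depth through the limit of 5 UMIs. Thinned to 1000 UMIs per barcode, the shares were 1.37% (32 of 2340), 0.677% (15 of 2216) and 1.38% (49 of 3549), a running minus sedentary difference of 0.69 points (0.08 to 1.32). Thinning left out 872, 1800 and 777 shallower barcodes.

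The shares are given by division. Barcodes with 3 or more mural genes made up 1.06%, 0.324% and 0.925% of the running, sedentary and untreated libraries (34, 13 and 40 barcodes), a running minus sedentary difference of 0.74 points (0.34 to 1.18). After thinning it was 0.62 points (0.14 to 1.14). For double-marked barcodes with 1 or 2 mural genes the difference was 0.94 points (0.34 to 1.58) and after thinning 0.07 (-0.28 to 0.43). It was 0.70 points (0.28 to 1.17) for Rgs5-led and 0.21 (-0.22 to 0.66) for Tagln-led barcodes. For mural-only barcodes it was 0.21 points (-0.07 to 0.53). After thinning the Rgs5-led barcodes numbered 7, 2 and 12 and the Tagln-led 0, 3 and 1, too few to give a direction. Whether the difference between running and sedentary itself differed between divisions was not tested. A sort can change such shares, and no second library of either group was there to compare.

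The makeup was alike in one respect. Double-marked barcodes were 88 of 102 in the running, 54 of 63 in the sedentary and 104 of 122 in the untreated library, 85.7% over all (81.1 to 89.6).

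**Figure D5:**
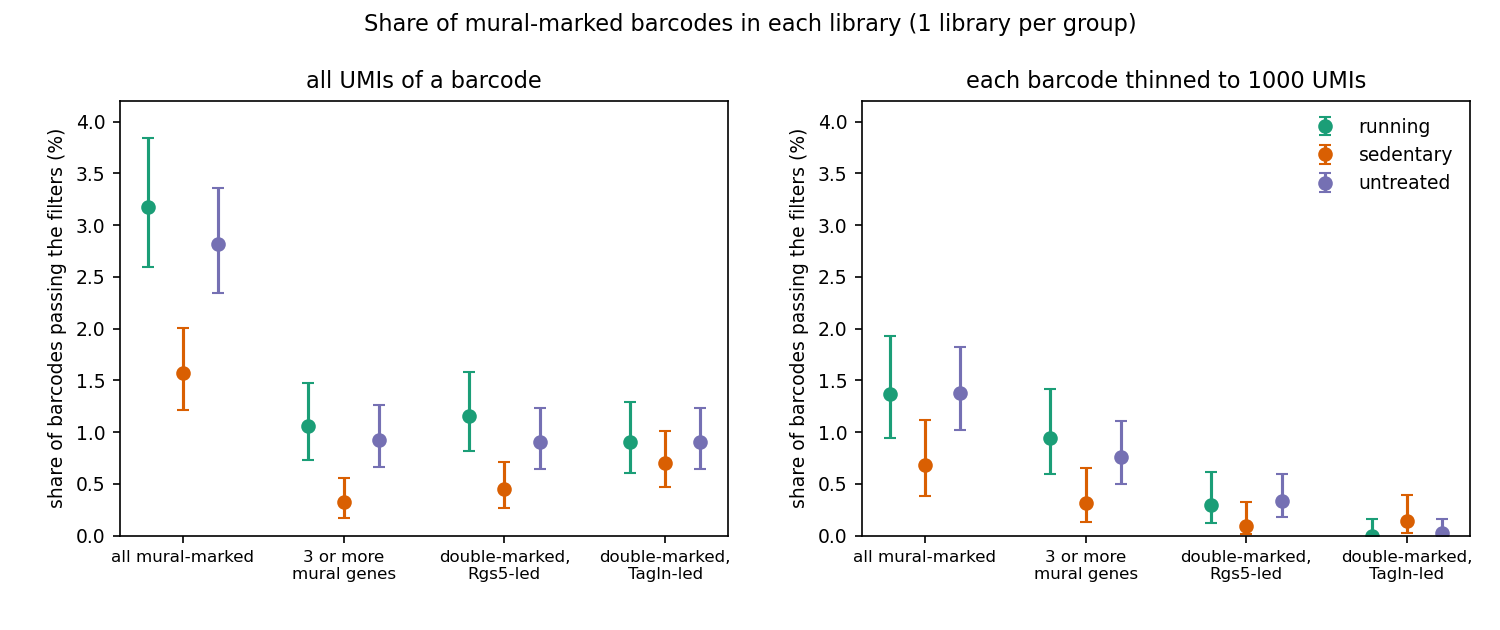
Points give the share of barcodes passing the filters, in percent, that fell in each division in the running, sedentary and untreated libraries, with exact 95% intervals, before thinning and after thinning to 1000 UMIs. Before thinning all mural-marked barcodes stood at 3.18%, 1.57% and 2.82%, and after it at 1.37%, 0.677% and 1.38%.

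Levels within mural-marked barcodes were compared between libraries, a gene being called when running was at least 2-fold from sedentary and on the same side of untreated. Of 6257 genes 326 (5.21%) were called higher in running and 246 (3.93%) lower, beside 2.57% and 1.43% of 13008 genes in the other barcodes, where counts were far larger. With 1 library on each side these are differences between libraries. In mural-only barcodes 41 of 611 genes were called higher (6.71%) and 46 lower (7.53%).

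Kcnj8 had 66 UMIs in running mural-marked barcodes, 5 in sedentary and 92 in untreated, or 172, 29.2 and 241 CPM (running over sedentary 2.49, 1.27 to 4.23). Abcc9 had 40, 4 and 58 UMIs (2.08, 0.69 to 4.11) and Gucy1a3 54, 6 and 66 UMIs. Neither channel gene was called, since running was below untreated, and it was the sedentary library that was low. The sedentary counts were also the lowest in other barcodes. There Kcnj8 had 16, 1 and 13 UMIs and Abcc9 16, 6 and 12 UMIs in the running, sedentary and untreated libraries. Rgs5, with 638, 272 and 887 UMIs, was level between running and sedentary (0.07, -0.14 to 0.28). Among barcodes with 3 or more mural genes Kcnj8 stood at 513, 153 and 667 CPM (1.70, 0.45 to 3.42) and Abcc9 had 35, 3 and 57 UMIs (1.53, -0.08 to 3.94), while Rgs5 was at -0.35 and Pdgfrb at -0.91. The sedentary library had 13 such barcodes, and few of them held the channel genes. Kcnj8 had a UMI in 2 of the 9 sedentary mural-only and 2 of the 8 sedentary multi-gene double-marked barcodes. Abcc9 had a UMI in 3 of these 9 and 0 of these 8.

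Most genes with the largest running ratios had few UMIs in at least 1 library. Ankrd1, encoding a stretch-induced nuclear protein of muscle, had 22, 0 and 0 UMIs in running, sedentary and untreated mural-marked barcodes, all 22 from 1 barcode. Ccl21a, encoding a lymphatic chemokine, had 69, 3 and 2 UMIs from 22, 3 and 2 barcodes, and in other barcodes the same gene stood at 800.1, 109 and 211 CPM. Cxcl1, encoding a neutrophil chemokine, had 50, 2 and 15 UMIs, or 130.5, 11.7 and 39.3 CPM (3.30, 1.56 to 6.57). In other barcodes Cxcl1 stood at 34.6, 22.6 and 39.9 CPM. In barcodes with 3 or more mural genes Cxcl1 had 46, 1 and 4 UMIs from 9, 1 and 3 barcodes. Cxcl1 was thus counted mainly in 9 running barcodes.

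The other genes of the 6 highest were Eml1 with 24, 2 and 3 UMIs, Gpx3 with 20, 2 and 2 UMIs and Pln, encoding the calcium pump inhibitor phospholamban, with 16, 0 and 4 UMIs. The 6 lowest were Esm1, Tbc1d2b, Prpf8, Gatsl3, Nr5a2 and Fam107a. Esm1, encoding an endothelial tip cell proteoglycan, had 2, 9 and 34 UMIs from 1, 4 and 6 barcodes. Fam107a had 0, 1 and 20 UMIs and stood at 4.33, 5.93 and 45.1 CPM in other barcodes, where it was likewise lower in running and sedentary than in untreated. Of these 12 genes all but Gatsl3 had at most 3 UMIs in at least 1 library. Beside 5.21% called higher and 3.93% lower over all genes, 1 of 12 pericyte genes was called higher (Ndufa4l2) and none lower. Of 18 smooth muscle genes 4 were called higher (Pln, Rasl12, Nrip2, Csrp1), and of 23 immediate early genes 1 (Atf3).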

How the data were processed

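Single-cell RNA-seq of 3 libraries was analysed from the deposited 10x matrices, which hold raw UMI counts of 41605 genes per barcode. The authors made these counts with Cell Ranger 2.0.2 on GRCm38.p5, per the submitters' processing notes, and sorting and library chemistry are given per the labels' protocols. The gene annotation and the settings of cell calling are not given in the sources used here. Depth per barcode limits what can be detected, so a gene at 0 UMIs is not shown to be absent.

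Barcodes with at least 300 genes and at most 10% mitochondrial UMIs were kept (11554 of 11715), and no doublet caller was run. UMIs were summed per library and division of barcodes and converted here from the deposited counts to CPM of that sum. Log2 ratios per library used a prior count of 0.5 scaled to the totals, and pooled ratios used the counts of all 3 libraries without a prior. A gene needed at least 20 UMIs in 1 of the 2 divisions compared, observed there or expected there from the level of the other. Comparisons between libraries needed 20 UMIs over the libraries. Divisions were called at 2-fold in each library, and running at 2-fold from sedentary and on the same side of untreated. Intervals are exact Clopper-Pearson (shares) or exact Poisson-ratio intervals at 95%, computed with scipy 1.17.1 and Python 3.11.15. No p-value was computed, since each group had 1 library and barcodes of a library are not replicates.

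Outside the 14 genes of the rule, mitochondrial and ribosomal protein genes and numbered gene models, the text names the 15 highest and 10 lowest genes of mural-marked barcodes, 8 each way of double-marked barcodes and 6 each way of running, ranked by the least extreme library ratio, and members of 31 gene lists (15 of markers, 16 of functions). The members, lists and rules were chosen with earlier results of these data known. Divisions by number of mural genes and by Kcnj8 and Acta2 were added after the data were seen. Alternatives changed the UMI limits, the filters, the prior, the scaling (TMM from edgeR 4.0.16 in R 4.3.3, and median-of-ratios) and the libraries used. Promoter windows came from RefSeq, by gene symbol. The calculations were tested on simulated data: folds were recovered relative to the unchanged genes, but where changed genes were abundant the scaling to totals shifted the ratios of all other genes, most in the small mural-only sums.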

Additional observations from a re-analysis of the deposited data

How the results depend on the processing

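No paired analysis was possible because each group had 1 library and no replicate numbers. Among alternative values of counts and shares, 123 stayed near the value reported and 52 moved. Of those for named genes, 657 stayed, 163 moved and 3 changed sign. Depth limits most of all the 41 mural-only barcodes, whose genes often rest on fewer than 20 UMIs per library.

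The share over all libraries (2.48%) was 4.73% from 3 UMIs, 1.01% from 10 UMIs, 1.18% after thinning, 1.51% for pericyte-type genes alone, 1.07% for contractile genes alone and 0.753% for 3 or more of the 9 genes. The running minus sedentary difference (1.61 points) was 2.72, 0.691, 0.411 and 0.735 points from 3 UMIs, after thinning, for contractile genes alone and for 3 or more genes. The double-marked share (85.7%) was 90.8% from 3 UMIs, 73.5% from 10 UMIs, 91.5% at no more than 5% mitochondrial UMIs, 35.4% after thinning, 90.9% and 67.25% from 3 and 10 endothelial UMIs and 63.2% for 3 or more genes. From 10 endothelial UMIs its running minus untreated difference was 11.4 points, against 1.03. The share with contractile genes alone (34.15%) was 17.95% from 3 UMIs, 26.5% from 10 UMIs and 20.8% after thinning, and its running minus untreated difference of -6.82 points became 10.4 from 10 UMIs; the cause was not tested.

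Against other barcodes (154 genes higher, 23 lower) the counts were 87 and 14 at no more than 5% mitochondrial UMIs, 355 and 533 without a filter on low counts and 72 and 10 from 50 UMIs per gene, with 40 lower from 10 mural UMIs, 67 lower for 3 or more mural genes and 38 lower without the running library. Double-marked against mural-only (54 higher, 76 lower) gave 12 and 23 at no more than 5% mitochondrial UMIs, 218 and 47 with TMM, 1078 and 287 without a filter, 17 and 22 from 50 UMIs and 34 and 47 without the running library, with 102 higher under median-of-ratios scaling, 47 lower from 3 and 9 higher from 10 endothelial UMIs, 47 lower without the untreated and 90 higher without the sedentary library. Running against sedentary (326 higher, 246 lower) gave 2336 and 1058 without a filter, 85 and 48 from 50 UMIs and 41 and 46 in mural-only barcodes. Fewer genes or barcodes enter under the stricter limits. Esm1, lower in running, had a log2 ratio of 1.82 from 10 mural UMIs, and Ccl21a and Eml1, higher in running, each had -0.40 in mural-only barcodes.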

Other observations

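Interferon-response and junction genes of the mural-only barcodes are given beside the 11.0% of all genes called higher and 11.2% called lower there. Of 5 interferon-response genes with enough counts 3 were called lower than in other barcodes (Isg15, Bst2, Iigp1). Bst2, encoding the antiviral membrane protein tetherin, stood at 83.3, 241 and 56.1 CPM in running, sedentary and untreated mural-only barcodes, against 581, 809 and 502 CPM in other barcodes (log2 ratio -2.69, -3.91 to -1.71). These values rest on 3, 3 and 2 UMIs in mural-only barcodes. Of 10 adhesion and junction genes 5 were called lower (Cdh5, Gja1, Itga6, Cldn5, Jam2), of which Cdh5 and Cldn5 belong to the rule, and Gjc1, encoding connexin 45 of vascular smooth muscle, was called higher. None of the 17 immediate early genes measured was called in mural-only barcodes.

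Nr2f2, used above as a vein gene, was also called higher in mural-only barcodes. It stood at 278, 722 and 758 CPM in running, sedentary and untreated mural-only barcodes, against 66.0, 65.0 and 125 CPM in other barcodes (log2 ratio 2.61). Its counts were 10, 9 and 27 UMIs. Selp and Ackr1 did not have enough counts there.

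The other lists for all 287 mural-marked barcodes against other barcodes are given beside the 2.31% higher and 0.345% lower over all genes. Of 19 contractile apparatus genes 9 were called higher and of 18 smooth muscle genes 10, of which Acta2, Tagln and Myh11 belong to the rule in both lists. Of 12 pericyte genes 11 were called higher, 6 of them genes of the rule, and of 7 vein genes 4 (Nr2f2, Selp, Ackr1, Lrg1). These 4 vein genes were also called higher in the Tagln-led barcodes. Log2 ratios of Tagln-led to Rgs5-led barcodes were 3.75 to 5.67 for Selp and 4.10 to 6.00 for Ackr1 over the libraries. Higd1b, Pdgfrb, Notch3 and Rgs5, named in the next sentence, belong to the rule too. Called higher were also 4 of 23 matrix genes (Col6a1, Bgn, Aspn, Timp2), 3 of 9 mitochondrial genes (Cox4i2, Ndufa4l2, Higd1b), 2 of 4 genes of the platelet-derived growth factor family (Pdgfa, Pdgfrb), 2 of 11 Notch genes (Notch3, Heyl), 2 of 9 G protein regulators (Rgs4, Rgs5), 1 of 10 angiopoietin and growth factor genes (Angptl2) and 1 of 15 adhesion genes (Itga7). The fibroblast and muscle fibre lists had 1 called gene each, Col3a1 of 4 and Tpm2 of 2. Called lower were 1 of 10 capillary genes (Car4), 2 of 11 artery genes (Cytl1, Gkn3) and 2 of 4 lymphatic genes (Lyve1, Ccl21a). No gene was called among 15 of transforming growth factor beta signalling, 23 immediate early, 15 interferon-response and 7 chemokine genes or the 1 satellite cell gene measured. The tendon, Schwann cell, leukocyte and platelet lists had no gene with enough counts.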
